A study of Mus musculus with 8 samples.

Results

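The hematopoietic cytokine receptors described here are 9 genes of the deposited count table, which lists 13305 genes in all. They were chosen by name as receptor subunits of blood cell growth factors: Epor, Csf3r, Csf2ra, Csf2rb, Csf2rb2, Il3ra, Il6ra, Il6st and Il7r. Earlier results of these data were known when they and the marker and pathway lists used below were chosen, so the choice was not independent of the data. All 9 were found by their Ensembl identifier in the GENCODE M21 annotation, and none was removed by the filter on low counts. RNA-seq was performed on whole bone marrow (BM) of 8 mice with 1 library per mouse, to ask how the BM transcriptome of this leukemia model depends on the Gab2 genotype. Gab2 is a docking protein that passes signals from activated receptors to Shp2, PI3 kinase and Stat5.

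All mice were on the C57BL/6N background and carried Mx1-Cre, Dnmt3a+/- and Flt3ITD/ITD, so no group was free of the leukemia alleles. The 3 AML WT mice were Gab2+/+, the 2 AML HET mice were Gab2+/- and the 3 AML KO mice were Gab2-/-. Flt3-ITD was a constitutive knock-in, and the Dnmt3a allele flanked by loxP sites was deleted by Cre under the interferon-responsive Mx1 promoter, which acts in many cell types. The paper found this allele recombined in all AML mice without injection of the inducer pIpC, and it studied its mice untreated. The Gab2 KO allele was constitutive, with a neomycin cassette in place of several exons, so no tissue of the AML KO mice had an intact Gab2 allele. Whole BM was not sorted, and the age of the sequenced mice is not given in the sources used here. The labels do not say whether mice shared a litter or an extraction, and p-values measure the spread between these mice.

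Cytokine receptors of this class have no kinase of their own. Binding of the ligand brings subunits together, the attached JAK kinases phosphorylate the receptor tails, and STAT factors, the Ras pathway and PI3 kinase are switched on, while SOCS proteins and phosphatases turn the signal off. Epor drives red cell production, Csf3r that of neutrophils, and Il7r that of lymphocytes. The receptors of GM-CSF, IL-3 and IL-5 share 1 beta subunit, Csf2rb, and those of the IL-6 family share gp130, the product of Il6st.

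The libraries held 28009258 to 39266815 counts each, and levels are given as CPM, which are counts scaled with TMM-normalized library sizes. A count of 0 allows up to 3 counts, or at most 0.109 CPM in these libraries, and this limit covers counting error only. No receptor came near it, since the lowest receptor count in a mouse was 25. Gab2, the targeted gene, was at 93.9, 68.5 and 61.6 CPM in AML WT, at 55.8 and 50.8 CPM in AML HET and at 35.0, 47.2 and 40.2 CPM in AML KO BM. It fell between AML WT and AML KO by 0.87 on the log2 scale (standard error, SE, 0.18), with an adjusted p of 0.0420 (quasi-likelihood test of edgeR, Benjamini-Hochberg adjustment over all genes). With 1 mouse left out at a time, it passed in 2 of 8 fits (adjusted p 0.0302 to 0.159, edgeR). The counts per gene do not show which exons the remaining reads came from. Blood cell markers of several lineages were measured in every mouse, and none of the listed markers in the table was at 0 in any mouse. The table holds no gene with a total under 106 counts. A marker low in AML WT can thus be in it through its AML KO counts alone, which favours markers that rise in the counts and marker means below. Gp6, Epx, Cd200r3 and Jchain, with AML WT means of 0.151, 0.185, 0.254 and 0.359 CPM, are examples.

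When AML KO was compared with AML WT BM, 1 of the 9 receptors had an adjusted p under 0.05, and this was Epor, which rose. Over all genes tested, 2.09% passed in either direction, with 1.77% higher and 0.323% lower in AML KO. An unadjusted p under 0.05 was reached by 5 receptors (Epor, Il7r, Il3ra, Csf2rb and Csf2rb2), where 17.7% of all genes reached it. The AML KO and AML WT mice did not overlap at 4 receptors (Epor, Csf3r, Il3ra and Il7r), where 22.1% of all genes did not overlap. The median log2 fold change was −0.26 over the 9 receptors and −0.02 over all genes. In bulk RNA of whole BM, fewer cells of a type and less RNA per cell cannot be told apart, which holds for every receptor below.

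**Figure D1:**
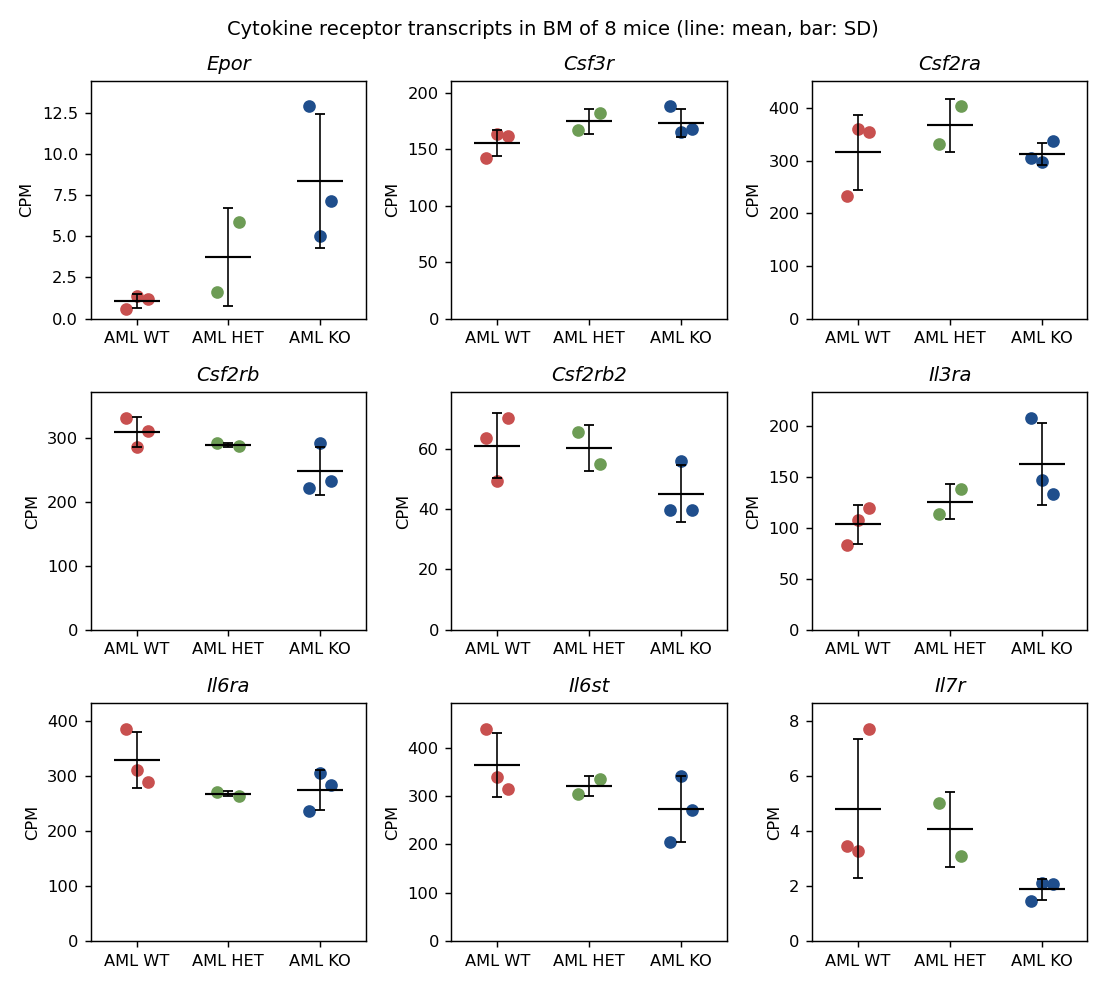
Each panel plots 1 receptor, with the level in CPM on the vertical axis from 0 and the 3 genotypes on the horizontal axis. Points are mice, lines are means and bars are SD. Epor was at most at 1.39 CPM in the AML WT mice and at least at 5.02 CPM in the AML KO mice, while the GM-CSF, IL-6 and G-CSF receptor subunits had group means that differed far less in relation to their level.

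Epor (ENSMUSG00000006235) encodes the erythropoietin receptor, which keeps erythroid progenitors alive and dividing, and lies on chromosome 9 from 21958897 to 21963506 on the minus strand (GRCm38). It was counted 25, 44 and 39 times in the AML WT, 47 and 184 times in the AML HET and 394, 138 and 243 times in the AML KO mice. These counts correspond to 0.615, 1.39 and 1.19 CPM in AML WT, 1.65 and 5.86 CPM in AML HET and 12.9, 5.02 and 7.16 CPM in AML KO BM. Every AML KO mouse was above every AML WT mouse, AML HET replicate 1 lay just above AML WT, and AML HET replicate 2 lay within the AML KO range. The means were 1.07 ± 0.403 CPM for AML WT (SD, n = 3), 3.76 ± 2.98 CPM for AML HET (SD, n = 2) and 8.36 ± 4.07 CPM for AML KO (SD, n = 3).

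The rise of Epor between AML WT and AML KO was 7.88-fold, a log2 fold change of 2.98 (SE 0.55), with an adjusted p of 0.0245 (edgeR). With each mouse left out in turn the log2 fold change stayed between 2.52 and 3.23, the ends being reached when AML KO replicate 1 or replicate 2 was omitted. The adjusted p of the same edgeR test was above 0.05 in 5 of these 8 fits. Omitting AML WT replicates 1, 2 and 3 gave 0.0797, 0.0883 and 0.0510, and omitting AML KO replicates 1 and 3 gave 0.0647 and 0.0738.

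The 250 bases before the RefSeq start of Epor are shown because Gata1, whose product binds GATA motifs, was among the 3 genes most like Epor over the mice. They lie at chr9:21963577-21963826 of GRCm38.p6 and are written on the minus strand, in the direction of transcription. Capitals mark a GATA motif, the reverse complement of AGATAA, which begins 54 bases before the start, and a GC box, the reverse complement of GGGCGG, which begins 26 bases before it.
Epor promoter: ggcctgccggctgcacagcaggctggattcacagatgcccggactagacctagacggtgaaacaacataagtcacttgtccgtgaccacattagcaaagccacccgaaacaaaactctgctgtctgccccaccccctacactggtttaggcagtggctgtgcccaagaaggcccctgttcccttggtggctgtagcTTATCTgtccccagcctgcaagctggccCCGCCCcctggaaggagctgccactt

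The same letters are common. A GATA motif (AGATAA, also with a T as first letter or a G as last, on either strand) occurs in 29.8% of the 32851 RefSeq windows of 300 bases around mouse gene starts, and a GC box in 35.7%. Of the 8 receptors with a window, Epor, Csf2rb2, Il3ra and Il6ra hold a GATA motif, and Epor, Csf2ra, Il3ra and Il6st a GC box. The letters GAGGAA, as bound by PU.1 in myeloid cells, occur in the windows of Csf3r, Csf2ra, Csf2rb2 and Il6ra and in 28.3% of all windows. The STAT motif TTCNNNGAA occurs in those of Csf2rb2 and Il7r and in 8.30% of all windows. The searched motifs do not overlap in the Epor window, and a match in letters is not a measured binding site.

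Erythroid markers moved in the same mice as Epor. Of 10 erythroid progenitor markers 7 rose in AML KO BM and none fell, with a median log2 fold change of 1.49. Of the 17 late erythroid markers measured, 15 rose and none fell, with a median of 3.69. Summed over the list, the late erythroid markers were at 277 to 377 CPM in AML WT, 613 to 2231 CPM in AML HET and 1566 to 5419 CPM in AML KO BM. The erythroid progenitor markers summed to 352 to 394 CPM in AML WT, 505 to 603 CPM in AML HET and 552 to 883 CPM in AML KO BM. Their part in the change of Epor was not tested. The counts of passing markers depended on single mice: without AML WT replicate 2 none of either list passed, and without AML WT replicate 1 there were 2 progenitor and 1 late erythroid markers. Without AML KO replicate 1 or 3, 4 progenitor and 9 late erythroid markers passed. Hbb-bs, a beta globin, had group means of 119 CPM in AML WT and 1249 CPM in AML KO, and Car2, an anhydrase of erythroid cells, had 17.8 and 102 CPM. Nfe2, a transcription factor of erythroid and megakaryocytic cells, had a log2 change of 0.54, and Tfrc, the transferrin receptor, had 0.46, and neither passed the test. The alpha globin genes Hba-a1 and Hba-a2 rose by 3.51 and 3.80 on the log2 scale. Hbb-bs and Car2 passed in 6 of the 8 fits with 1 mouse left out, and Hba-a1 and Hba-a2 in 4.

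The level of Epor was also set against these markers, as its log2 CPM minus the mean log2 CPM of the list in the same mouse. Against the erythroid progenitor markers this difference was −3.24, −2.40 and −2.46 in AML WT, −2.68 and −1.80 in AML HET and −1.51, −1.93 and −1.59 in AML KO mice. Each AML KO mouse was above each AML WT mouse. The mean moved by 1.02 between AML WT and AML KO, since log2 CPM of Epor was higher by 2.86 and that of the markers by 1.84 (exact permutation test, p = 0.1, two-sided, which is the smallest p that 3 mice against 3 allow). Against the late erythroid markers, whose mean was higher by 3.26, the difference turned to −0.39, and again the groups did not overlap (exact two-sided permutation p = 0.1). Epor thus moved more than the mean of the progenitor list and less than the mean of the hemoglobin and membrane genes. It did not move more than each progenitor marker. Means in AML WT and AML KO were 1.06 and 12.2 CPM for Gata1, 0.880 and 9.74 CPM for Klf1 and 0.598 and 10.4 CPM for Car1. Those of Nfe2 were 235 and 342 CPM, and those of Tfrc 94.9 and 131 CPM. Tal1, Gfi1b, Zfpm1, Car2 and Cited4 also changed less than Epor in proportion to their level.

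**Figure D2:**
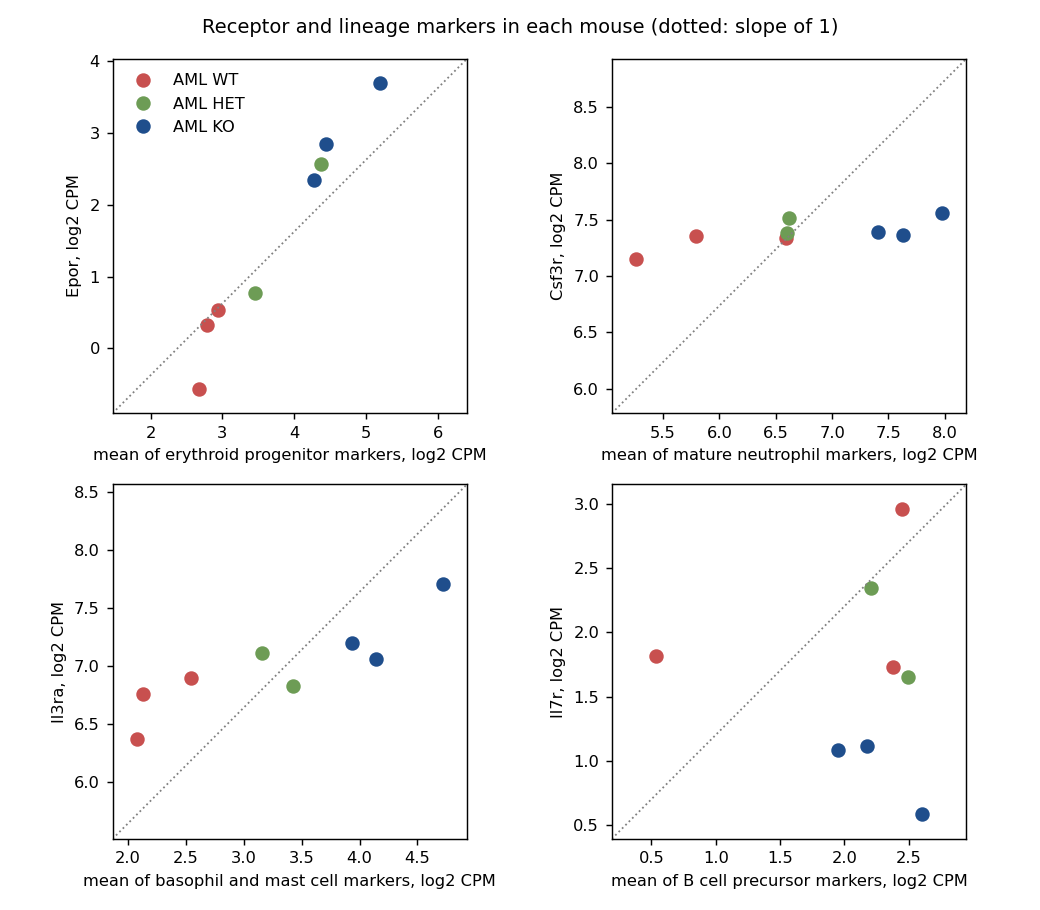
Each panel plots a receptor on the vertical axis against the mean of its lineage markers on the horizontal axis, both in log2 CPM, with 1 point per mouse and a dotted line of slope 1. For Epor the AML KO mice and AML HET replicate 2 lie to the upper right. For Csf3r the AML KO mice lie to the right at about the same height as the other mice, for Il3ra to the right with a smaller shift upwards, and for Il7r below them.

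Csf3r (ENSMUSG00000028859) encodes the G-CSF receptor, found on cells of the neutrophil lineage and on monocytes, and lies on chromosome 4 from 126024550 to 126044440 on the plus strand. It was at 142, 163 and 161 CPM in AML WT, 167 and 182 CPM in AML HET and 188, 165 and 168 CPM in AML KO BM. All AML HET and AML KO mice lay above all AML WT mice, by a narrow margin. Its log2 fold change was 0.16 in AML KO against AML WT (SE 0.11, adjusted p = 0.457, edgeR) and 0.17 in AML HET against AML WT (SE 0.13, adjusted p = 0.990, edgeR). The first was 0.09 without AML WT replicate 1 and the second 0.10 without AML HET replicate 2.

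The median change of mature neutrophil markers was larger than the change of Csf3r. Of the 19 listed, 10 rose in AML KO BM and none fell, with a median log2 fold change of 1.73. Without AML WT replicate 2 only 1 of them passed, 4 without AML KO replicate 1 or 3, 6 without AML HET replicate 1 or 2 or AML KO replicate 2, while 15 passed without AML WT replicate 3. Their summed level was 2212 to 5715 CPM in AML WT, 6460 to 7292 CPM in AML HET and 12135 to 19091 CPM in AML KO BM. S100a9 rose from 830 to 4223 CPM and Ngp from 500 to 2385 CPM in the group means, both of them granule or cytosolic proteins of neutrophils. With 1 mouse left out at a time, S100a9 passed in 2 of 8 fits (adjusted p up to 0.254, edgeR, without AML KO replicate 1) and Ngp in 6 of 8. S100a8, the partner of S100a9, had 499 and 2275 CPM and an adjusted p of 0.0568 from the same edgeR test. Relative to the mean of these markers, log2 CPM of Csf3r was 1.40 ± 0.59 for AML WT, 0.84 for AML HET and −0.23 ± 0.20 for AML KO (SD, n = 3 in AML WT and AML KO). The change of −1.63 came with no overlap between AML WT and AML KO mice (exact two-sided permutation p = 0.1, the smallest possible). It came from the markers, whose mean was higher by 1.79, while Csf3r was higher by 0.16. The list was chosen with earlier results known, so this p does not bear on Csf3r alone. With the median of the markers in place of their mean the change was −0.92. Relative to monocyte markers, Csf3r was instead higher by 0.40 in AML KO BM.

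The receptors of GM-CSF and IL-3 are built from an alpha subunit for 1 ligand and a beta subunit. Csf2ra (ENSMUSG00000059326), the GM-CSF alpha subunit, lies on chromosome 19 from 61223957 to 61228429 on the minus strand. It was at 233, 360 and 355 CPM in AML WT, 332 and 403 CPM in AML HET and 305, 297 and 337 CPM in AML KO BM. The groups overlapped, with AML WT replicate 1 lowest of all mice. AML KO differed from AML WT by a log2 fold change of −0.01 (SE 0.17, adjusted p = 0.973, edgeR), and its sign turned under several alternatives, among them another normalization.

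Il3ra (ENSMUSG00000068758), the IL-3 alpha subunit, lies on chromosome 14 from 14346275 to 14356011 on the plus strand. IL-3 acts on basophils, mast cells and early progenitors. Il3ra was at 82.7, 108 and 119 CPM in AML WT, 113 and 138 CPM in AML HET and 208, 147 and 133 CPM in AML KO BM. Each AML KO mouse was above each AML WT mouse, and AML KO replicate 1 was highest of all. Relative to AML WT, AML KO had a log2 change of 0.65 (SE 0.20, unadjusted p = 0.00861, adjusted p = 0.161, edgeR) and did not pass the test. DESeq2 gave 0.65 with an adjusted p of 0.0468, under the threshold, and no fit in edgeR with 1 mouse left out passed. The smallest of these 8 values was 0.44, without AML KO replicate 1. An opposite-strand gene, Gm48860, shares 46 exonic bases with Il3ra, and the strand setting of the counting is not given in the sources used here.

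Among the 7 basophil and mast cell markers measured, 5 rose in AML KO BM, and their summed level was 63.2 to 80.0 CPM in AML WT and 212 to 364 CPM in AML KO mice. None of them passed without AML WT replicate 2. Prss34, a protease of basophils, rose from 5.09 to 95.4 CPM, Mcpt8, another basophil protease, from 26.2 to 65.9 CPM and Hdc, which makes histamine, from 21.8 to 52.3 CPM in the group means. Of the 8 fits with 1 mouse left out, Prss34 and Hdc passed in 7, and Mcpt8 passed in 1 (adjusted p 0.0142 to 0.134, edgeR). Relative to these markers, log2 CPM of Il3ra was 4.42 ± 0.18 for AML WT, 3.68 for AML HET and 3.05 ± 0.18 for AML KO (SD, n = 3 in AML WT and AML KO). That is a change of −1.37 without overlap between AML WT and AML KO (exact two-sided permutation p = 0.1, the smallest possible). It arose because the mean of the markers was higher by 2.01, while Il3ra was itself higher by 0.64. The list was chosen with earlier results known, so this p does not bear on Il3ra alone. Relative to monocyte markers the change was 0.88, so the sign depends on the cells taken as reference.

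Csf2rb (ENSMUSG00000071713), the beta subunit shared by the GM-CSF, IL-3 and IL-5 receptors, lies on chromosome 15 from 78325752 to 78353847 on the plus strand. Csf2rb2 (ENSMUSG00000071714), a copy found in mice that serves IL-3 alone, lies beside it on the minus strand from 78282507 to 78305721. The pair is shown here in sequence because its members are so alike that reads could be assigned to either. The coding sequences, of 2688 and 2634 bases, were identical at 95.2% of the aligned positions without a gap. The stretch of 120 coding bases in which they differ most is printed from GRCm38, with capitals at each of the 22 differing bases.
Csf2rb, plus strand, 2 exons within chr15:78338898-78340471: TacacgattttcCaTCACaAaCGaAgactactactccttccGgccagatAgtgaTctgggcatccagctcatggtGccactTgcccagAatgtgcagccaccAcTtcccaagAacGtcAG
Csf2rb2, minus strand, 2 exons within chr15:78292838-78294433: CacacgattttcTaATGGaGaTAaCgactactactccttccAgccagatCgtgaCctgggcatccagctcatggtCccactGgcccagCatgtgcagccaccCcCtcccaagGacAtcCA

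The longest run without a difference is 242 coding bases, at chr15:78348577-78348818 in Csf2rb and chr15:78284630-78284871 in Csf2rb2. Of all 50-base windows of the Csf2rb coding sequence 26.0% also occur in Csf2rb2, and of all 100-base windows 11.1% do. How reads that fit both genes were counted is not given in the sources used here, so the split between the pair is uncertain.

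Csf2rb was at 331, 285 and 311 CPM in AML WT, 291 and 287 CPM in AML HET and 222, 292 and 232 CPM in AML KO BM. AML KO replicates 1 and 3 were below all other mice, while AML KO replicate 2 lay in the AML WT range. Csf2rb2 was at 63.6, 49.3 and 70.4 CPM in AML WT, 65.7 and 55 CPM in AML HET and 39.8, 56.0 and 39.8 CPM in AML KO BM. The same AML KO replicates were lowest there too, and AML KO replicate 2 again lay among the AML WT mice. Log2 fold changes in AML KO against AML WT were −0.32 for Csf2rb (SE 0.13, adjusted p = 0.267, edgeR) and −0.44 for Csf2rb2 (SE 0.18, adjusted p = 0.270, edgeR). Neither passed the test in edgeR, DESeq2 or limma-voom.

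The 14 monocyte markers included none that passed the test, with a median log2 fold change of −0.30 and 13 of them lower in AML KO. An unadjusted p under 0.05 was reached by 5 of them in edgeR, and DESeq2 called 2. They summed to 6617 to 7340 CPM in AML WT and 5166 to 6814 CPM in AML KO BM. Ly6c2, a surface protein of inflammatory monocytes, was at 1149 CPM in AML WT and 1093 CPM in AML KO BM. Ccr2, their chemokine receptor, was at 1223 and 928 CPM, and F13a1, a clotting factor subunit made by monocytes, at 1528 and 1057 CPM. Relative to the mean of these markers, the change between AML WT and AML KO was 0.25 for Csf2ra (exact two-sided permutation p = 0.4). It was −0.08 for Csf2rb (exact two-sided permutation p = 0.8) and −0.20 for Csf2rb2 (exact two-sided permutation p = 0.3). The groups overlapped in each case. With 3 mice per group these tests cannot go below 0.1, so a p above it does not show that receptor and markers moved alike.

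Il6ra (ENSMUSG00000027947), the alpha subunit that binds IL-6, lies on chromosome 3 from 89864059 to 89913196 on the minus strand. It was at 387, 311 and 289 CPM in AML WT, 272 and 265 CPM in AML HET and 236, 306 and 284 CPM in AML KO BM. Both AML HET mice lay below all AML WT mice, and AML KO overlapped with AML WT. Log2 fold changes were −0.26 in AML KO against AML WT (SE 0.15, adjusted p = 0.356, edgeR) and −0.29 in AML HET against AML WT (SE 0.16, adjusted p = 0.990, edgeR). Without AML WT replicate 1 they were −0.14 and −0.16. Gm42809, on the opposite strand, shares 242 exonic bases with Il6ra. Relative to the monocyte markers the change was −0.02 (exact two-sided permutation p = 1).

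Il6st (ENSMUSG00000021756) encodes gp130, the signaling subunit of the IL-6, IL-11, LIF and oncostatin M receptors, and lies on chromosome 13 from 112464070 to 112510086 on the plus strand. It was at 440, 339 and 314 CPM in AML WT, 305 and 335 CPM in AML HET and 205, 342 and 271 CPM in AML KO BM. AML WT replicate 1 was highest and AML KO replicate 1 lowest, and AML KO replicate 2 lay among the AML WT mice. In AML KO against AML WT this was a log2 fold change of −0.42 (SE 0.20, adjusted p = 0.299, edgeR). Leaving out AML KO replicate 1 gave −0.25 and leaving out replicate 2 of that group gave −0.61.

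Megakaryocytes respond to IL-6 and IL-11 through gp130, and most of their markers rose. Of 15 megakaryocyte and platelet markers 13 rose in AML KO BM, with a median log2 fold change of 3.00, and their summed level was 96.6 to 134 CPM in AML WT and 362 to 481 CPM in AML KO mice. Without AML WT replicate 2, 8 of them passed. Pf4, a chemokine of platelet granules, rose from 3.03 to 48.2 CPM and Itga2b, the platelet integrin subunit CD41, from 12.9 to 92.1 CPM, while Itgb3, its partner, had 71.3 and 123 CPM with an adjusted p of 0.0645 from the same edgeR test. Relative to these markers log2 CPM of Il6st changed by −3.14 between AML WT and AML KO, without overlap (exact two-sided permutation p = 0.1, the smallest possible). Most of this was the rise of the markers, whose mean was higher by 2.71, while Il6st was lower by 0.43. The list was chosen with earlier results known, so this p does not bear on Il6st alone. Relative to the hematopoietic stem and progenitor cell (HSPC) markers, whose mean was higher by 0.58, the change was −1.01, also without overlap. Of those 13 markers 3 rose, among them Cd34, a surface protein of progenitors, with 179 CPM in AML WT and 300 CPM in AML KO BM. None of these passed when AML WT replicate 1 or 2 or AML KO replicate 1 or 3 was left out. Cd48 and Myb had log2 fold changes of 0.03 and 0.38 and did not pass.

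Il7r (ENSMUSG00000003882) encodes the IL-7 receptor alpha subunit of B cell precursors and T cells and lies on chromosome 15 from 9505788 to 9530176 on the minus strand. It was counted 141, 103 and 252 times in AML WT, 143 and 97 times in AML HET and 44, 58 and 70 times in AML KO mice. The levels were 3.47, 3.26 and 7.72 CPM in AML WT, 5.01 and 3.09 CPM in AML HET and 1.44, 2.11 and 2.06 CPM in AML KO BM. Each AML KO mouse was below all other mice, and AML WT replicate 3 stood far above the rest. AML KO lay below AML WT by a log2 fold change of −1.36 (SE 0.39, unadjusted p = 0.00597, adjusted p = 0.135, edgeR), which did not pass the test.

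DESeq2 gave −1.36 for Il7r with an adjusted p of 0.0205, under the threshold. With single mice left out of the edgeR fit the value ranged from −1.57 to −0.84, the latter when AML WT replicate 3 was omitted, and none of the 8 fits passed. Between AML KO and AML HET it was −1.11 (SE 0.42, unadjusted p = 0.0261, adjusted p = 0.771, edgeR).

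Of the lymphoid markers set against Il7r none fell. None of the 11 B cell precursor markers in the table passed the test, with a median log2 fold change of 0.12, and of 17 T and NK cell markers 1 rose, with a median of 0.51. No B cell precursor marker was called by DESeq2 and none had an unadjusted p under 0.05 in edgeR. These markers summed to 55.6 to 101 CPM in AML WT and 78.5 to 110 CPM in AML KO BM. Dntt, the enzyme that adds bases at antigen receptor joints, was at 14.2 CPM in AML WT and 15.4 CPM in AML KO BM. Cd79b, a part of the B cell receptor, was at 41.9 and 45.6 CPM, and Blnk, its adaptor, at 5.81 and 3.72 CPM. Thy1, the T and NK cell marker that rose (it passed in 2 of 8 fits with 1 mouse left out), is also found on progenitors and stroma and went from 48.7 to 91.4 CPM, while the T cell kinase Lck had 14.7 and 21.8 CPM and Nkg7, of cytotoxic granules, 76.5 and 95.7 CPM.

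Relative to the B cell precursor markers log2 CPM of Il7r was 0.38 ± 0.97 for AML WT, −0.35 for AML HET and −1.31 ± 0.62 for AML KO (SD, n = 3 in AML WT and AML KO). In AML WT replicate 1 the mean of these markers was 0.54 log2 CPM, against 1.95 to 2.60 in the other 7 mice. The change of −1.70 came with no overlap between AML WT and AML KO, though AML WT replicate 2 at −0.65 lay close to AML KO replicate 3 at −0.86 (exact two-sided permutation p = 0.1, the smallest possible). In it log2 CPM of Il7r was lower by 1.24 and that of the markers higher by 0.46. Relative to the T and NK cell markers the change was −1.73, again without overlap. Of the other cell types listed, 3 of 11 macrophage markers rose and 1 fell, 2 of 5 eosinophil markers rose and 1 of 6 mature B and plasma cell markers rose. The lists held 9 eosinophil and 8 mature B and plasma cell markers, and those missing from the table could not be counted. Epx went from 0.185 to 1.73 CPM and Jchain from 0.359 to 2.59 CPM in the group means, so both may be in the table through AML KO alone. Without AML WT replicate 2, 0 macrophage, 1 eosinophil and 0 mature B and plasma cell markers passed, and macrophage markers numbered 1 without AML WT replicate 1 or AML KO replicate 3 and 2 without AML WT replicate 3 or AML KO replicate 1. The eosinophil count was also 1 without AML WT replicate 3, AML KO replicate 1 or 3 or either AML HET mouse, and 3 passed without AML WT replicate 1. The mature B and plasma cell count was also 0 without AML WT replicate 1 or AML KO replicate 1 or 3. None of 6 primary granule markers and none of 10 markers of stroma and endothelium passed (edgeR), where 3 and 4 had an unadjusted p under 0.05 and DESeq2 called 2 and 3.

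**Figure D3:**
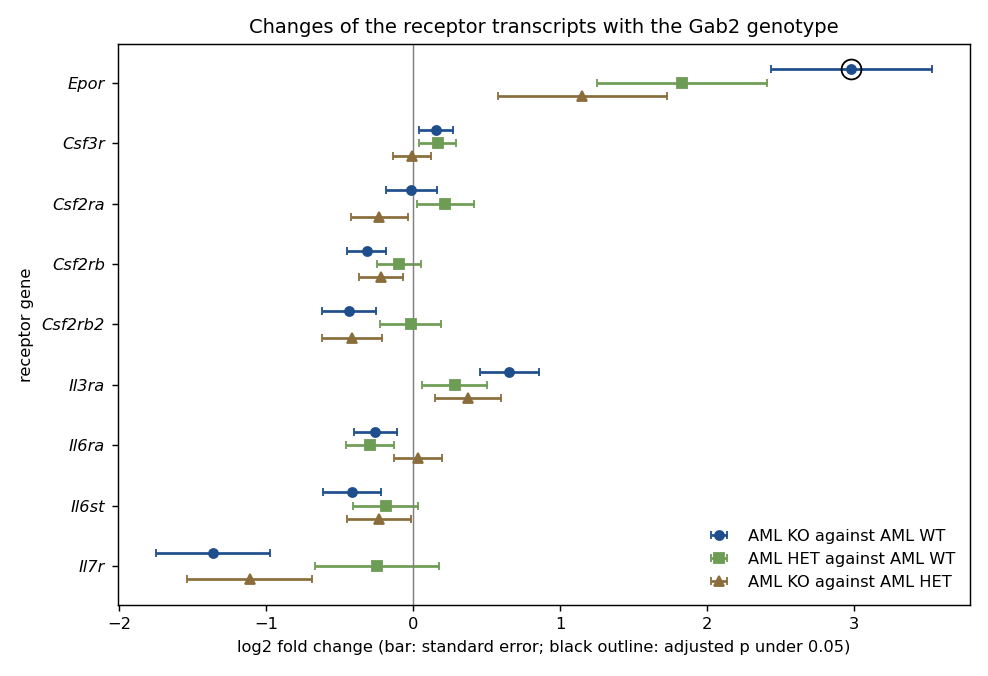
Points give the log2 fold change of each receptor between genotypes on the horizontal axis, with standard errors as bars, and a black outline marks an adjusted p under 0.05. The outline is found at Epor between AML KO and AML WT alone. Il7r has its point at −1.36 in that comparison and Il3ra at 0.65.

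With 1 Gab2 allele lost, no receptor passed the test between AML HET and AML WT, where 0.0225% of all genes passed. An unadjusted p under 0.05 was reached by 1 receptor, Epor, where 2.47% of all genes reached it. Epor had a log2 change of 1.83 (SE 0.58, unadjusted p = 0.0108, adjusted p = 0.990, edgeR), with 1.65 CPM in AML HET replicate 1 and 5.86 CPM in replicate 2. It was 0.64 without AML HET replicate 2 and 2.47 without replicate 1. AML HET and AML WT did not overlap at 3 receptors (Epor, Csf3r and Il6ra), and 18.1% of all genes did not overlap. The remaining 6 had log2 fold changes between −0.25 for Il7r and 0.28 for Il3ra. Those of Il7r and Csf2rb2 turned sign under some alternatives.

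With the second allele lost, none of the 9 passed between AML KO and AML HET, and 0% of all genes did in edgeR, with 5.86% at an unadjusted p under 0.05 and 77 genes past the threshold in DESeq2. Il7r was the 1 receptor under an unadjusted p of 0.05 and the 1 receptor without overlap, where 24.2% of all genes did not overlap. Epor had a log2 change of 1.15 (SE 0.57, adjusted p = 0.847, edgeR) and Csf2rb2 one of −0.42 (SE 0.20, adjusted p = 0.847, edgeR). The value of Epor was 0.51 without AML HET replicate 1 and 2.34 without AML HET replicate 2. The other 6 lay between −0.23 for Il6st and 0.37 for Il3ra. AML HET and AML KO were each compared with the same AML WT mice, and the contrasts are therefore not independent of each other.

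Levels of different receptors were compared per length, as CPM per kilobase of exon, the counts of a gene scaled by library size and by the length of its exons. Csf2ra was highest in every group, with 110.0 ± 24.9 for AML WT (SD, n = 3), 128 ± 17.6 for AML HET (SD, n = 2) and 109 ± 7.34 for AML KO (SD, n = 3), and no mouse of the next receptor reached its range. In AML WT there followed Csf3r (43.1), Csf2rb (42.5), Il6ra (38.1), Il3ra (34.8) and Il6st (32.8), of which no neighbours differed beyond their ranges. Csf2rb2 (12.9), Il7r (1.03) and Epor (0.536) came last, and Il7r and Epor overlapped. The beta subunit thus had a lower level per length than the GM-CSF alpha subunit in every group.

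The order of levels was not the same in AML KO BM. In AML KO BM Il3ra was second at 54.8 ± 13.5 (SD, n = 3), overlapping with Csf3r at 48.1 ± 3.45 (SD, n = 3). Below them came Csf2rb (34.1), Il6ra (31.8) and Il6st (24.6), which overlapped from neighbour to neighbour, and then Csf2rb2 (9.53). Epor, with 4.20 ± 2.04 CPM per kilobase (SD, n = 3), was above Il7r at 0.401 ± 0.0804 (SD, n = 3) without overlap, the reverse of their order in AML WT. In AML HET BM Epor (1.89) and Il7r (0.869) overlapped. Lengths from the longest transcript in place of all exons gave Csf2rb a level of 63.1 in AML WT, so its place among the middle receptors depends on the gene model.

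**Figure D4:**
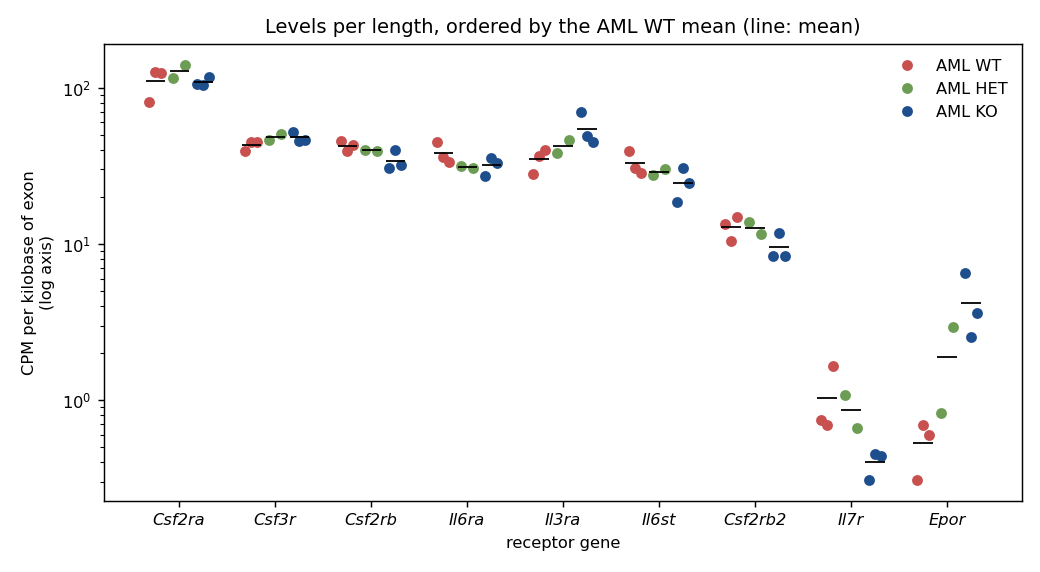
The level of each receptor in CPM per kilobase of exon is plotted on a logarithmic vertical axis, with receptors ordered by their AML WT mean, points for mice and lines for means. Csf2ra stands above all others in every genotype, and the order of Il7r and Epor at the right end is reversed between AML WT and AML KO.

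The genes most like each receptor were taken by the Pearson correlation of log2 CPM over the 8 mice, which share the group differences and are given as a description. For Epor these were Kif22, a mitotic motor protein (r = 0.992), Gata1, the main erythroid transcription factor (0.991), and Phyhip (0.989). Gata1 was at 0.639, 1.55 and 0.980 CPM in AML WT, 2.35 and 7.17 CPM in AML HET and 19.2, 8.08 and 9.34 CPM in AML KO BM, the same order of groups as Epor, with AML HET replicate 2 again well above replicate 1. Of the 50 genes most like Epor, 13 were listed erythroid markers. Of the 50 genes most like Csf3r none was a listed neutrophil or monocyte marker, and of those most like Il3ra none was a basophil or mast cell marker. Nor was a B cell precursor or T and NK cell marker among those most like Il7r.

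Csf3r was most like Ppp2r5b (0.983), Cog8 (0.970) and Ngrn (0.970), and Csf2ra most like Tut1 (0.959), Sbsn (0.944) and Gm10250 (0.938). Csf2rb was most like Sgpl1, Mtmr4 and Frmd4b (0.987 to 0.989) and Csf2rb2 most like Cdh2, Adar and Gm5431 (0.970 to 0.972). For Il3ra these were Fam220a, Rce1 and H2afv (0.993 to 0.997), for Il6ra Lman1, Tbc1d16 and Kansl1 (0.991 to 0.993) and for Il6st Piezo1, Abca3 and Kif20a (0.991 to 0.993). Among the genes most like Il7r were Siglec1, a macrophage lectin (0.982), and Dpp4 (0.981). Among the receptors themselves, r was 0.91 between Csf2rb and Csf2rb2, which may share reads, and 0.91 between Epor and Il3ra. It was −0.95 between Csf3r and Il6ra.

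Around the receptors, 105 genes of their pathways were listed, and 85 of them are in the table. Between AML KO and AML WT BM 1 rose and none fell, which is 1.18% of them against 2.09% of all genes. An unadjusted p under 0.05 was reached by 14, or 16.5% against 17.7% of all genes. The median log2 fold change of the 85 was −0.03, against −0.02 over all genes. None passed between AML HET and AML WT or between AML KO and AML HET in edgeR or DESeq2, with 0 and 4 at an unadjusted p under 0.05 in edgeR.

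Tfr2, which binds transferrin and escorts the erythropoietin receptor to the cell surface, was the gene that rose. It was at 6.91, 8.09 and 6.55 CPM in AML WT, 9.54 and 10.6 CPM in AML HET and 21.6, 13.4 and 13.9 CPM in AML KO BM. The 3 groups did not overlap. AML KO exceeded AML WT by a log2 fold change of 1.18 (SE 0.22, adjusted p = 0.0244, edgeR), with an adjusted p above 0.05 in 7 of the 8 fits with 1 mouse left out. The fit without AML KO replicate 2 was the exception.

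None of the 6 partner subunits in the table passed the test. Il11ra1, the IL-11 alpha subunit that pairs with gp130, was at 25.0 CPM in AML WT and 52.4 CPM in AML KO BM (log2 fold change 1.07, adjusted p = 0.0736, edgeR). Lifr, which pairs with gp130 for LIF, was at 36.2 and 17.9 CPM (log2 fold change −1.01, adjusted p = 0.0999, edgeR). Both passed in DESeq2. The common gamma chain Il2rg, which pairs with Il7r, had a log2 change of −0.38 (SE 0.26, adjusted p = 0.432, edgeR). Of 18 further cytokine receptors none passed, and the smallest p belonged to Il13ra1, with 76.9 CPM in AML WT and 41.6 CPM in AML KO BM (adjusted p = 0.0641, edgeR), which DESeq2 called lower. Il2ra had a log2 change of 0.93 (adjusted p = 0.198, edgeR).

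Of 22 listed ligands 8 are in the table. The genes for erythropoietin, G-CSF, GM-CSF, IL-3 and IL-6 were not analysed here. None of the 8 passed the test, with a median log2 fold change of 0.35 and all 8 higher in AML KO, Osm at 0.54 and Ebi3 at 0.30 having the smallest p. Osm encodes oncostatin M, a gp130 ligand, and Ebi3 a subunit of IL-27.

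Gab2 itself is in none of the lists. None of 11 JAK and STAT genes passed, with a median log2 fold change of −0.18 and 9 of them lower. Jak2, the kinase of Epor and the beta subunit, was at 138 CPM in AML WT and 98.5 CPM in AML KO BM (log2 fold change −0.48, adjusted p = 0.168, edgeR), and Tyk2 had −0.31. Stat5a, Stat5b and Stat3 had −0.18, −0.03 and 0.12. None of 18 adaptors and proximal kinases passed, with a median of −0.10, the smallest p being those of Lyn (−0.23) and Sos1 (−0.26). None of 19 negative regulators passed either, with a median of −0.11. Cish, a SOCS family gene induced by Stat5, had 26.3 CPM in AML WT and 36.9 CPM in AML KO BM (adjusted p = 0.169, edgeR), and Socs2 had a log2 change of 0.41. Of 5 trafficking and shedding genes, Tfr2 was the 1 that passed, and Adam17, which cleaves the IL-6 receptor from the cell surface, had −0.32.

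**Figure D5:**
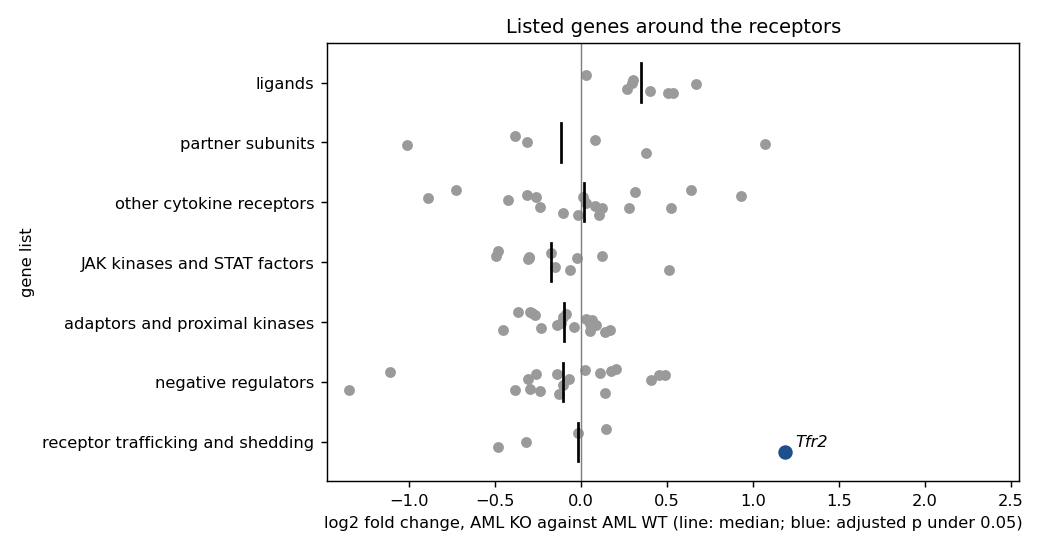
Each point is a listed gene of the receptor pathways, placed by its log2 fold change in AML KO against AML WT on the horizontal axis and by its list on the vertical axis, with a line at the median of the list and blue for an adjusted p under 0.05. Tfr2, at 1.18, is the 1 blue point, and the medians of the 7 lists lie between −0.18 and 0.35.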

How the data were processed

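RNA of whole BM was sequenced on an Illumina HiSeq4000. The authors deposited raw counts per gene, and the submitters' processing notes name Trimmomatic 0.36, STAR 2.5.2b and mm10. The counting tool, its annotation and its strand setting are not given in the sources used here. Identifiers were matched to GENCODE M21 (13266 of 13305 found), from which positions, exon lengths and coding sequences were taken, and promoters came from RefSeq (GRCm38.p6). The smallest total count of a gene in the table is 106, so genes with lower totals are missing there.

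The tests were run with edgeR 4.0.16 under R 4.3.3. TMM normalization and the robust quasi-likelihood test used all 8 mice, with genotype as the only term, and filterByExpr removed no gene. P was adjusted over all genes with the Benjamini-Hochberg method (threshold 0.05), and standard errors came from the F statistic. Log2 CPM had a prior count of 2, and differences between a receptor and its markers were compared by an exact permutation test (two-sided). A move of the markers alone can set its outcome, so its p does not bear on the receptor alone. The members and gene lists were chosen with earlier results of these data known. Named were the receptors, Gab2, the pathway genes past the threshold and the 2 of each pathway list with the smallest p, the 3 markers of each lineage list with the highest level and the 3 genes most like each receptor. Il2rg, Stat3, Stat5a and Stat5b were named outside this rule with their values in view. So were the markers Klf1, Car1, Tal1, Gfi1b, Zfpm1, Cited4, Gp6, Epx, Cd200r3 and Jchain. A pathway gene, taken out of its list, and a gene most like Il7r are not reported here. Alternatives comprised DESeq2 1.42.0, voom from limma 3.58.1, other normalizations and filters, AML WT and AML KO alone, the 10 most counted genes left out, the replicate number as a block and each mouse left out in turn. Sequences and plots were handled in Python 3.11.15 (pandas 2.3.3, numpy 2.4.6, matplotlib 3.10.9).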

Additional observations from a re-analysis of the deposited data

How the results depend on the processing

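Of the 9 receptors, DESeq2 called 3 in AML KO against AML WT (Epor, Il3ra and Il7r) in place of 1, and the fit with a replicate block called 0, as did 5 of the 8 fits with 1 mouse left out (range 0 to 1). The count over all genes was 730 in DESeq2 and 19 with the replicate block, and 40 to 370 with single mice left out. It fell to 167 and 40 when AML WT replicate 1 or 2 was omitted and to 137 and 123 when AML KO replicate 1 or 3 was. The listed pathway genes numbered 4 in DESeq2, 2 with AML WT and AML KO mice alone, 0 with the replicate block and 0 to 2 with single mice left out. For AML HET against AML WT, 59 genes passed in DESeq2, 1 in limma-voom, 0 with the block and 1 to 5 with single mice left out. For AML KO against AML HET, 77 passed in DESeq2 and 0 to 4 with single mice left out. With the replicate block no erythroid, basophil or HSPC marker passed in AML KO against AML WT, 1 neutrophil marker did and 6 megakaryocyte and platelet markers did. The cause was not tested.

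The filter removed no gene, so the fit without it repeats the reported one. Of the 8 alternatives besides that and leaving out 1 mouse, Epor passed in 7, and its adjusted p in them was between 7.25e-07 and 0.133 (edgeR with the replicate block, log2 fold change 3.08). Deviations of same-numbered mice from their group means correlated at −0.509 (AML WT and AML KO replicate 1) to 0.289 (AML WT and AML HET replicate 2). In groups this small the deviations of the mice depend on each other. These values therefore cannot decide whether the replicate numbers pair the mice, and the labels do not say.

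For AML KO against AML WT, the log2 fold change of Csf2ra turned to 0.0098 in limma-voom, 0.0088 with upper-quartile normalization and 0.012 with the block (−0.199 to 0.091 with single mice left out). For AML HET against AML WT, Csf2rb2 turned to 0.0068 with upper-quartile normalization (−0.152 to 0.109 with single mice left out) and Il7r to 0.094 with the block (−0.637 to 0.279). With single mice left out, values in AML KO against AML HET were −0.072 to 0.056 for Csf3r and −0.054 to 0.14 for Il6ra.

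Relative to the second marker list, changes reversed for Epor (−0.39), Csf3r (0.40), Csf2ra (−1.78) and Il3ra (0.88), and moved for Csf2rb (−2.34), Csf2rb2 (−2.45), Il6ra (−2.04) and Il6st (−1.01). With the median of the markers, Csf3r moved to −0.92 and Il6ra to 0.0019. With single mice left out, Il6ra ranged from −0.174 to 0.176 and Csf2rb from −0.151 to 0.037. With the length of the longest transcript, levels per kilobase in AML WT, AML HET and AML KO became 139, 161 and 137 for Csf2ra, 63.1, 59.0 and 50.7 for Csf2rb, 44.6, 54.3 and 70.2 for Il3ra and 42.0, 36.9 and 31.4 for Il6st, and 0.528 for Il7r in AML KO. No setting moved the median of all genes by over 0.1 on the log2 scale.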
